A study of Caenorhabditis elegans with 2 samples.

Results

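The 2382 regions described here lie in the centres of autosomes II, III, IV and V of Caenorhabditis elegans, in a list of 10489 regions called on pooled chromatin immunoprecipitation and sequencing (ChIP-seq) data for the homeodomain protein CEH-9. A region was a member when its point of strongest signal, the summit, fell in the middle one of 3 equal parts of its chromosome on build ce11 (WBcel235). No signal value entered the choice. These centres ran from 5.09 to 10.2 Mb on II, 4.59 to 9.19 Mb on III, 5.83 to 11.7 Mb on IV and 6.975 to 13.95 Mb on V. They hold 22.4% of the genome's length and 22.7% of the pooled list. There were 561 members on II, 560 on III, 547 on IV and 714 on V. The outer parts on both sides, called flanks here, held 4512 regions on the same 4 chromosomes and are what the centres are compared with.

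The study comprised 1 group of 2 samples, biological replicates 1 and 3, each with 1 technical replicate. Both came from whole L3 larvae of both sexes of strain OP202, unc-119(ed3) III; wgIs202, in which an integrated transgene adds a C-terminal GFP-FLAG tag to CEH-9. Chromatin was sheared by sonication. The labels name ceh-9 as the antibody target and transcription factor ChIP-seq as the assay, but their free text calls both libraries input, and the files used here do not settle which is right. Whole animals mix all tissues, so a region cannot be assigned to a cell type. Sequencing depth and the control library were not analysed here. All regions of the pooled list were 316 bp wide and carried a signal value, which has no stated unit and serves to rank regions within 1 list.

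Homeodomain proteins are transcription factors whose homeodomain contacts DNA, typically at short words with a TAAT core. The autosomes of C. elegans have no single centromere. Their centres recombine rarely and are rich in genes that are conserved or needed for viability, while their arms recombine more often and hold more repeats and more members of large, fast-changing gene families. Many genes of the centres are transcribed together as operons, whose downstream messages receive the spliced leader SL2 from small nuclear RNAs.

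Sequence around 8 of the strongest members is given first, 100 bases on either side of the summit on the + strand of ce11, because 4 of them lie at small RNA genes and the other 4 at long stretches of purines. In the first 4, capitals mark the bases of the annotated small RNA gene inside the window. These are ZK994.7 (chrV:8500460-8500660), a small nucleolar RNA gene inside pxn-1, the microRNA gene cel-mir-53 (chrIV:11027657-11027857) on the − strand, and the SL2 RNA genes sls-2.1 (chrII:5844724-5844924) and sls-2.2 (chrII:5543517-5543717).
ZK994.7: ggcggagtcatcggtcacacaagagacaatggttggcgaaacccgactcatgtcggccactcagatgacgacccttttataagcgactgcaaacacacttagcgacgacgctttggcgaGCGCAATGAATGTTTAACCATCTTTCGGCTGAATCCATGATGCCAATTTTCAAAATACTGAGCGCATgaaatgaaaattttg
cel-mir-53: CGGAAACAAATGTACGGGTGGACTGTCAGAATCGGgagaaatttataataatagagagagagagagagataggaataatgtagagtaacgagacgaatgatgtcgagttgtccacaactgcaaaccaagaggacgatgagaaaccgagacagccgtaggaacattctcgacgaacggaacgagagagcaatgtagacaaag
sls-2.1: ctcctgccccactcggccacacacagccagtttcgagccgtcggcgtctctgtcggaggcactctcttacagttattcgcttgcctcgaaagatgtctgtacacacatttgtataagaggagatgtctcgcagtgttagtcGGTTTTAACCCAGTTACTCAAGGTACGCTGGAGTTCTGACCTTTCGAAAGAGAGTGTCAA
sls-2.2: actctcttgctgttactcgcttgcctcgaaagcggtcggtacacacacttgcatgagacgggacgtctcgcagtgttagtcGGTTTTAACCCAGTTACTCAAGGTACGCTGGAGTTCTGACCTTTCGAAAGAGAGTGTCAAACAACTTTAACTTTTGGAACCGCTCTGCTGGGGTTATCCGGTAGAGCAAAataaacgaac

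In the other 4, capitals mark runs of at least 15 purines in a row. These are the promoter window of zfp-1 (chrIII:8802053-8802253), an intron of zfp-1 near F54F2.6 (chrIII:8800099-8800299), an intron of saeg-1 (chrV:10858548-10858748) and a site between genes upstream of F07H5.7 (chrII:8796463-8796663).
zfp-1: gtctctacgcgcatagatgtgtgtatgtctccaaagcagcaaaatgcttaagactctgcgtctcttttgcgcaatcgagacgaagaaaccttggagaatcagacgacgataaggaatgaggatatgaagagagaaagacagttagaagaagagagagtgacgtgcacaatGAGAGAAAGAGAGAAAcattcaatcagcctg
F54F2.6: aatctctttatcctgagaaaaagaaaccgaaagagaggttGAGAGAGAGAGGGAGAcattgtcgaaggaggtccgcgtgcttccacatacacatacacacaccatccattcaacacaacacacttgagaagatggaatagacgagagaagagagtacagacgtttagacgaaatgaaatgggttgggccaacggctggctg
saeg-1: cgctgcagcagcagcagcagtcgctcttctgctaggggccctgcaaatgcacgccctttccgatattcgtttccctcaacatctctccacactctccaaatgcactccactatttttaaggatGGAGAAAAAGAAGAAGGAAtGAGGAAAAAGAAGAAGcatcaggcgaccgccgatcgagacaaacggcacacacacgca
F07H5.7: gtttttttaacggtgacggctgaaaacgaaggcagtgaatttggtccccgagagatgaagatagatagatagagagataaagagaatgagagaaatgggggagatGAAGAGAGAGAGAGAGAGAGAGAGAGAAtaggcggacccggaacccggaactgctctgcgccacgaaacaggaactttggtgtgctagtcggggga

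The strongest member was the ZK994.7 region (chrV:8500402-8500717), rank 12 of the pooled list, with a pooled signal of 38.7. It ranked 409 in replicate 1 (signal 14.8) and 10 in replicate 3 (signal 20.5). Its summit lay 19 bp before the start of ZK994.7. The host, pxn-1, encodes a peroxidasin, an enzyme of the extracellular matrix. No other member ranked as high in replicate 3.

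The second, at cel-mir-53 (chrIV:11027599-11027914), a gene of the mir-51 family, had a pooled signal of 37.2. It ranked 11 in replicate 1 (signal 30.6) but 12951 in replicate 3 (signal 6.48). The sls-2.1 region (chrII:5844666-5844981) showed the same split, with a pooled signal of 32.8, rank 16 in replicate 1 and rank 10846 in replicate 3. Its near copy sls-2.2 (chrII:5543459-5543774) went the other way, with a pooled signal of 29.4, rank 848 in replicate 1 and rank 17 in replicate 3. The annotated sls-2.1 and sls-2.2 genes are identical at 102 of 110 bases, and how reads that match more than 1 copy were placed is not given in the sources used here, so the values of these 2 regions are uncertain.

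Of the 25 strongest members, 3 lay within zfp-1, which encodes a PHD finger chromatin protein related to human AF10. They had pooled signals of 34.6 (intron, chrIII:8795699-8796014), 34.3 (promoter window, chrIII:8801995-8802310) and 32.2 (intron, chrIII:8800041-8800356). The intronic region at 34.6 ranked 18 in replicate 1 and had no replicate 3 region within 200 bp. The one at 34.3 ranked 121 and 2466 in replicates 1 and 3. The one at 32.2 ranked 134 and 23, so it was high in both. Another zfp-1 member, in an exon, had a pooled signal of 20.5 but ranked 16 in replicate 3, against 19690 in replicate 1.

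The remaining members with the highest signals included sec-61.G, for a subunit of the protein channel of the endoplasmic reticulum (30.9, replicate 1 rank 126, replicate 3 rank 400), and an exon of the laminin alpha gene epi-1 (30.6, ranks 241 and 219). Both were among the 1000 strongest of each replicate. At F58H1.15, a non-coding RNA gene within F58H1.5, the pooled signal was 32.3, with ranks of 88 and 2409 in replicates 1 and 3. Other coding genes that held the nearest annotated start of any kind, or the summit itself, for a member among the 25 were abts-3, mvk-1 (mevalonate kinase), vhp-1 (a MAP kinase phosphatase), idpp-15, C28H8.3, sre-10 (a chemoreceptor), saeg-1, F07H5.7 and egl-27 (an MTA-type chromatin protein). Their pooled signals ran between 27.1 and 29.9. For 12 of the 25 the nearest annotated start was that of a non-coding gene, and for 13 that of a protein-coding gene. A promoter window, the stretch that opens 1000 bp before an annotated transcript start and closes 200 bp after it, held 14 summits. Over all members the nearest start was that of a protein-coding gene for 71.7%, and 44.9% of summits lay in a promoter window.

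**Figure D1:**
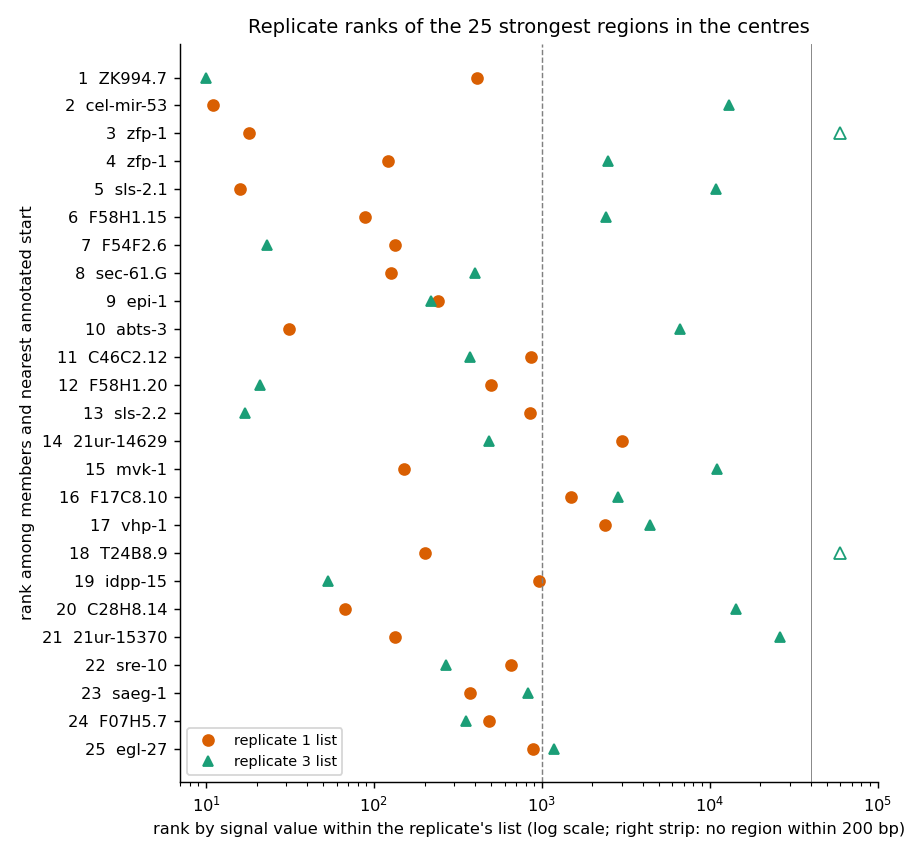
Rank within the replicate 1 list (circles) and the replicate 3 list (triangles) of each of the 25 strongest members, ordered by pooled signal from the top; the rank axis is logarithmic, the dashed line marks rank 1000 and open symbols in the right strip mark no region within 200 bp. In all, 22 of the 25 were among the 1000 strongest of replicate 1. Of the 25, 12 were among those of replicate 3 and 11 were among both. Over all members the shares were 10.03% for replicate 1, 7.18% for replicate 3 and 0.714% for both. The 25 were ranked by a pooled signal made from both replicates, so these counts are not independent evidence.

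Pooled signals of members ran between 11.8 and 38.7. Their median was 14.04, against 14.2 in the flanks and 14.1 on X. The highest value in the flanks was 34.98 and that on X was 72.9. Of the members, 48.5% (95% exact binomial interval 46.5 to 50.6) were at or above the list's median signal, against 50.6% of flank regions. Members made up 8 of the 45 highest ranks, 17.8% (8.002 to 32.1), and 25.2% (18.5 to 32.8) of ranks 46 to 200. X alone held 22 of those first 45. These intervals, and all later ones, cover counting error only.

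Few members passed a strict call. A q-value under 0.05 was reached by 4 members, 0.168% of them, while 0.267% of the whole list passed. The authors' reproducible set, selected by the irreproducible discovery rate (IDR), holds 8 members, 0.336%, against a background of 0.429%. In the flanks 0.0887% reached that q-value and 0.177% were in the reproducible set. The 8 members in that set were the strongest ones. The lists hold both peaks and background regions, per the deposited file descriptions.

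Replicate support was uneven. A replicate 1 region lay within 200 bp of 71.2% of members (69.3 to 73.0), against 68.9% of flank regions and 70% of the whole list. A replicate 3 region lay that near to 62.4% (60.5 to 64.4), against 68.02% of flank regions and 66.2% of the whole list. Both replicates supported 908 members (38.1%, against 41.2% in the flanks), replicate 1 alone supported 787 (33.0%, against 27.7%), replicate 3 alone 579 (24.3%, against 26.8%) and neither 108 (4.53%, against 4.23%). Among the 100 strongest members, both replicates supported 82. These 100 were ranked by a pooled signal made from both replicates, so this count is not independent evidence.

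The replicate 1 and replicate 3 signals of members matched in both had a Spearman correlation of −0.11 over 908 members, against 0.35 between pooled signal and replicate 1 signal over 1695 and 0.21 between pooled signal and replicate 3 signal over 1487. These are descriptions. The pooled list was made from both libraries and holds only regions with a pooled signal of at least 11.8, and members found in only 1 replicate are left out. Such a choice can by itself lower the correlation between replicates, so the value of −0.11 does not measure how far they agree. The replicates differed in q-values. In the replicate 1 list, 777 regions of the centres had a q-value under 0.05, 10.8% of 7176, while in replicate 3 only 6 of 6256 did, 0.0959%. The flanks differed likewise, with 9.48% in replicate 1 and 0.0581% in replicate 3, as did X, with 10.53% and 0.112%. This difference in q-values was thus not particular to the centres.

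Both replicates ranked 17 members among their own 1000 strongest, 0.714% (0.416 to 1.14), against 0.1995% (0.0913 to 0.378) of flank regions and 0.41% of the whole list. Of these, 8 lay on V, 4 on III, 3 on IV and 2 on II, and 9 had summits in promoter windows. Besides members already named they included cyk-3, a ubiquitin protease gene (pooled 27.1, ranks 358 and 418 in replicates 1 and 3), F46B6.2 (26.7, ranks 302 and 39), B0365.10 (25.6, ranks 60 and 628), egl-21, for the carboxypeptidase that processes neuropeptides (23.5, ranks 143 and 442), larp-1, for an RNA-binding protein (23.4, ranks 233 and 92), and H37A05.6 (19.9, ranks 91 and 625). The summits of F46B6.2 and egl-21 lay 30 and 29 bp upstream of their starts. Best in replicate 3 after ZK994.7 was the bed-3 promoter, at rank 14, which had a pooled signal of 17.6 and no replicate 1 region. The gene encodes a BED zinc finger protein.

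Over whole lists, the density of regions in the centres depended on the replicate. In the pooled list the centres held 106 regions per Mb, against 100.3 in the flanks, a ratio of 1.06. The replicate 1 list gave 319 per Mb, against 281 in the flanks, a ratio of 1.13, while the replicate 3 list gave 278 per Mb, against 306, a ratio of 0.909. The direction of each replicate held on all 4 chromosomes. In replicate 1 the ratio was 1.12 on II, 1.13 on III, 1.11 on IV and 1.17 on V. In replicate 3 it was 0.861 on II, 0.961 on III, 0.949 on IV and 0.882 on V. The 2 replicates thus lay on opposite sides of equal density. Their nuclear lists held 29970 regions in replicate 1 and 30000 in replicate 3. With lists of near equal size, a higher density in the centres goes with a lower one elsewhere. Among the 1000 strongest pooled regions the ratio was 1.26. Of the 1000 strongest of each replicate, the centres held 27.2% in replicate 1 and 23.3% in replicate 3. The flanks held 38.1% and 42.8%. By length the centres are 22.4% of the genome and the flanks 44.9%, so among these strongest regions the centres were denser in both replicates.

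**Figure D2:**
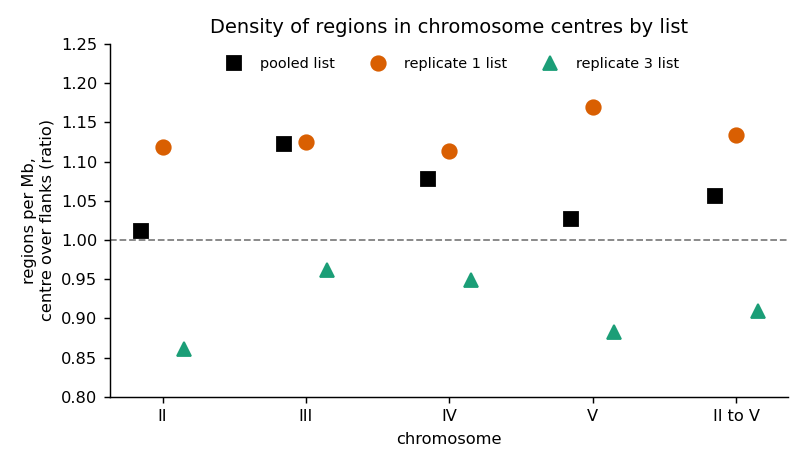
Ratio of regions per Mb in the centre over the flanks (vertical axis) by chromosome for the pooled, replicate 1 and replicate 3 lists; the dashed line marks equal density. Replicate 1 lies above 1 and replicate 3 below 1 on all 4 chromosomes, with the pooled list between 1.01 and 1.12.

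Within the centres members were spread out. The median distance between neighbouring summits was between 5566 bp on III and 7285 bp on IV. Windows of 100 kb held a median of 9 to 12 members by chromosome. The densest such window held 21 members, on III and on V, and the emptiest held 2, on V. The longest stretch without a member was 110202 bp on V (chrV:8803646-8913848), with 30 protein-coding genes, 4 replicate 1 regions and 6 replicate 3 regions. On III and IV the longest such stretches, 61023 and 80035 bp, were 83.1% and 69.0% repeat-masked. The 8 outermost members lay 1989 to 17342 bp inside a boundary, with signals of 11.9 to 17.4, and the 8 nearest regions outside it had signals of 12.5 to 20.3.

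**Figure D3:**
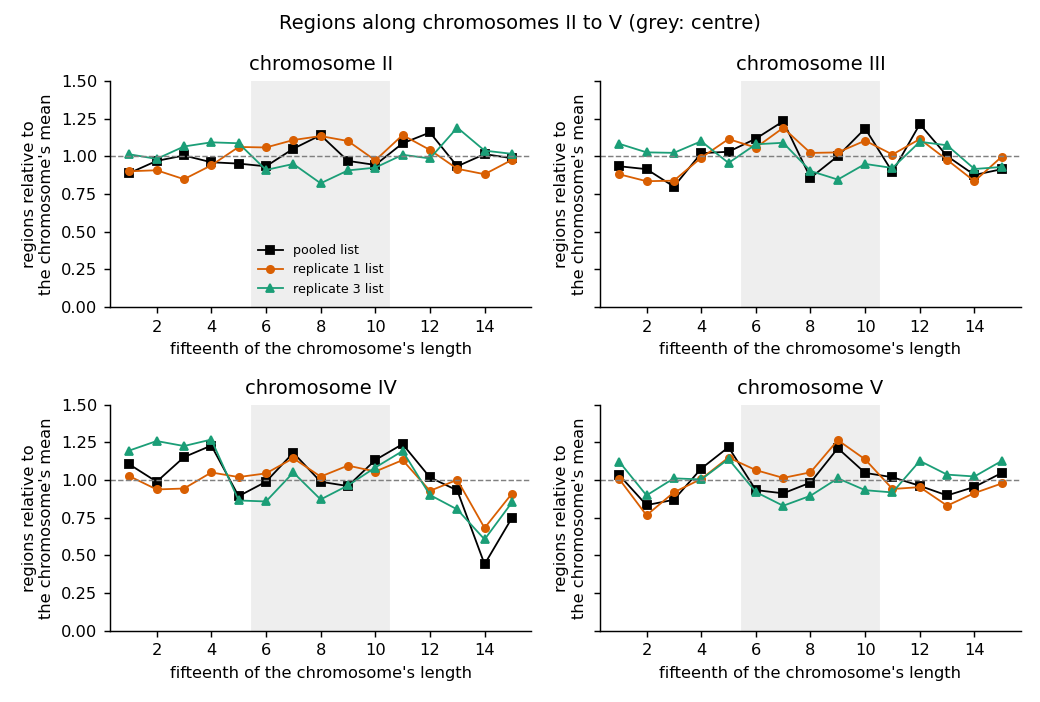
Regions in each fifteenth of the length of chromosomes II to V, divided by that chromosome's mean over fifteenths (vertical axis), for the pooled, replicate 1 and replicate 3 lists; grey marks the centre. The pooled count in a central fifteenth lay between 89 and 128 regions on III and between 100 and 123 on IV.

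Summits of members lay in promoter windows in 44.9% of cases (42.9 to 46.9), against 39.7% (38.3 to 41.2) in the flanks. The bases of the same parts lay in such windows in 42.5% and 40.1%. The centres were above the flanks in both replicates. The shares were 45.9% of central and 42.3% of outer regions in replicate 1, and 41.3% and 38.2% in replicate 3. Set against the bases, however, replicate 1 lay above them in both parts and replicate 3 below them in both. The interval for the centres in replicate 3, 40.08 to 42.54, included the 42.5% of bases. Starts of piRNA genes, which are clustered on IV, widen these windows. Without them the share was 42.7% of members against 36.3% of flank regions, with 39.7% and 33.7% of bases. Replicate 3 then had 39.02% in the centres (37.8 to 40.2), near the bases, and 34.6% in the flanks (33.8 to 35.4), above them. With protein-coding starts only, it was 31.2% of members, against 30.8% of central bases. Exons held 29.4% of members and 24.9% of central bases, and introns 13.8% of members and 17.3% of central bases. In the flanks introns held 21.2% of regions and 25.98% of bases.

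**Figure D4:**
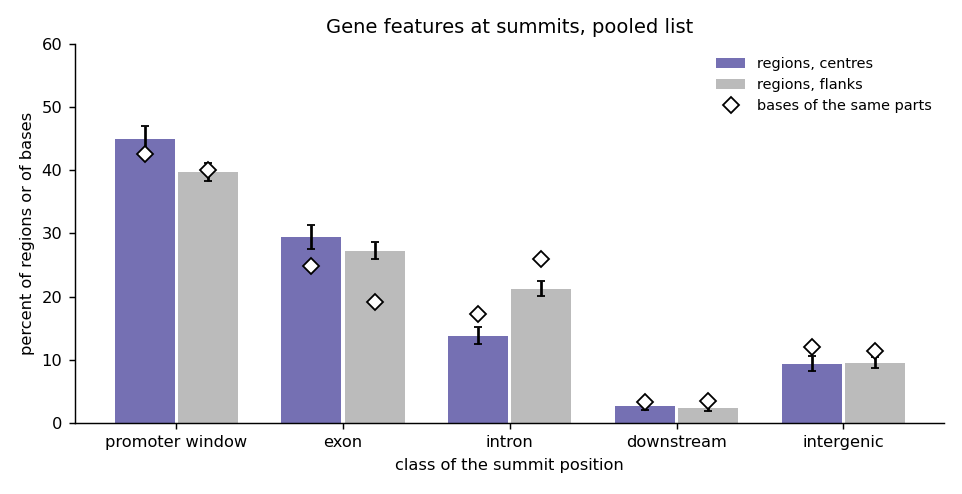
Percent of summits in each class for regions of the centres (purple) and flanks (grey), with 95% exact binomial intervals; diamonds give the percent of bases of the same parts. The promoter share of members, 44.9%, stands against 42.5% of central bases, and members lie above the bases for exons and below them for introns and intergenic positions.

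Promoter shares of members by chromosome were 42.4% on II, 36.96% on III, 51.2% on IV and 48.3% on V. The share of central bases in such windows had the same order, with 41.3% on II, 35.1% on III, 47.6% on IV and 43.97% on V. On IV, 280 members were in any window and 238 when piRNA starts were left out. The strongest 596 members had 50.5% (46.4 to 54.6) in promoter windows, against 43.6% (39.6 to 47.7) of the weakest 596. The order was the same in the central regions of replicate 1, with 49.0% of the strongest 1794 against 45.1% of the weakest 1794, and the opposite in replicate 3, with 40.4% of the strongest 1564 against 42.01% of the weakest 1564. The 100 strongest members had 61 in promoter windows, against 50 of the 100 strongest flank regions. Members with replicate 1 support only had 51.0% in promoter windows (47.4 to 54.5), and of the 579 with replicate 3 support only, 220 did (34.03 to 42.1%). By distance to the nearest protein-coding start, 7.01% of summits lay in the first 200 bp after it and 6.97% in the 200 bp before. In the flanks these shares were 6.34% and 6.21%. They were the highest of any 200 bp bin in both parts. The same profile over all bases was not made, so no excess near starts can be read from them.

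Among 5434 protein-coding genes of the centres, 798 (14.7%) had a member in a promoter window, most of them, 741, a single one. The 4 with 3 members were egl-27, drap-1, ifbp-1 and ogdh-2, named because they had the highest count. Counted over gene bodies, T28B11.1 had 8 members in 20.3 kb, egl-27 7 in 12.9 kb, and the large extracellular matrix gene dig-1 6 in 48.5 kb. Of the T28B11.1 members, the highest pooled signal was 17.01. The egl-27 members spanned pooled signals of 12.5 to 27.1, the strongest at the start of the gene with ranks of 885 and 1182 in replicates 1 and 3.

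Of 2837 non-coding genes other than piRNA genes, 485 (17.1%) had a member in a promoter window. Among 113 snoRNA genes 27 had one (23.9%, 16.4 to 32.8), among 82 tRNA genes 19 (23.2%, 14.6 to 33.8), among 46 miRNA genes 9 (19.6%, 9.36 to 33.9) and among 34 snRNA genes 4 (11.8%, 3.30 to 27.4), so that all 4 intervals include 17.1%, while 151 of 1659 piRNA genes (9.10%) and 29 of 351 pseudogenes (8.26%) did. Genes that lie close together share a window and are not independent. After cel-mir-53, the strongest miRNA gene member was cel-mir-87, with a pooled signal of 26.3, rank 473 in replicate 1 and rank 27068 in replicate 3. The snoRNA gene W01C9.6 had 26.2 and ranks of 392 and 2690. The strongest tRNA gene region after the one at ZK994.7 had a pooled signal of 25.3, no replicate 1 region and rank 266 in replicate 3.

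Among regulators of transcription, 8 of 33 homeobox and paired-domain genes had a member in a promoter window (24.2%, 11.1 to 42.3), as did 7 of 18 histone modifier and remodeller genes (38.9%, 17.3 to 64.3), 9 of 63 nuclear hormone receptor genes and none of 13 bHLH genes, which allows a share of up to 24.7% by the exact interval. The strongest homeobox member, at unc-42, a gene for neuron identity, had a pooled signal of 22.5, rank 195 in replicate 1 and rank 21161 in replicate 3. At pal-1, the caudal-type gene, it was 18.9, with ranks of 5525 and 13544, and at ceh-20, for a Hox cofactor, 16.01, with ranks of 8813 and 17007. Of 4 Hox genes, mab-5 had a member, at 13.7 and without a region in either replicate. Among the histone modifiers after zfp-1, jmjd-5 had 17.7, with ranks of 27622 and 13809, and the methyltransferase gene set-4 had 17.7, with ranks of 641 and 3277.

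Among genes for basic cell functions, 5 of 26 cytosolic ribosomal protein genes had a member, led by rpl-35 (23.02, rank 10005 in replicate 1 and rank 245 in replicate 3) and rps-12 (19.1, rank 656 in replicate 1, none in replicate 3). Of 26 heat shock and chaperonin genes 7 did, led by cct-1 (24.3, rank 22 in replicate 1 and rank 13555 in replicate 3), whose region also lies in a promoter window of mig-5, a Dishevelled gene of the Wnt pathway. The next, hsp-110 (21.5, rank 89 in replicate 1, none in replicate 3), shares its region with the proteasome gene rpn-3. By contrast 2 of 47 histone genes had one, his-59 and his-60, which share a single region with a pooled signal of 21.8. Histone genes occur in near-identical copies, so this count is uncertain.

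Among large, fast-changing families, chemoreceptor genes had one in 18 of 302 cases (5.96%, 3.57 to 9.26), C-type lectin genes in 1 of 35, and cytochrome P450 and UDP-glucuronosyltransferase genes in 4 of 55. MATH and BTB domain genes had one in 3 of 8 cases (37.5%, 8.52 to 75.5). The 7 F-box genes of the centres, 2.17% of that family, had none, which allows a share of up to 41.0% by the exact interval. Collagen genes of the cuticle had one in 7 of 63 cases (11.1%, 4.59 to 21.6), the strongest at bli-6 with 19.1, rank 102 in replicate 1 and no replicate 3 region. Neuropeptide and insulin-like peptide genes had one in 5 of 41 cases, led by ins-8 with 19.8. The exact interval lay above the 14.7% of all coding genes for histone modifier genes and below it for chemoreceptor and histone genes, and it included 14.7% for all other lists of coding genes. Genes with more annotated transcript starts have more promoter window, and no allowance was made for this or for the 33 lists looked at.

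Words that homeodomains bind were less frequent at members than in sequence of the centres away from regions. Within 100 bp of the summit, 20.5% (18.9 to 22.2) of members held the word TAATTA, or the word TAATTG, on either strand, against 17.02% of flank regions, but 26.2% of 90034 tiles of the same length laid over the centres away from regions did. The share in tiles of the flanks was 21.9%. Central tiles had a lower median G+C content than members, 34.3% against 38.8%, and its part in these word shares was not tested. The strongest 596 members had 17.8% and the weakest 596 had 21.3%. The strongest and weakest 1794 central regions of replicate 1 had 21.96% and 26.5%, and the strongest and weakest 1564 of replicate 3 had 19.6% and 23.7%. The word TGATAA, which GATA-type factors bind, was in 16.2% of members and 20.5% of central tiles. A missing word says only that these letters are not in the window.

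Purine stretches showed the opposite order. A run of 15 or more purines or pyrimidines was found in 12.7% of members (11.4 to 14.1), against 9.09% of flank regions (8.26 to 9.96). Central tiles had 6.97% and flank tiles 6.08%. Such runs were in 18.3% (15.3 to 21.6) of the strongest 596 members and 8.89% (6.73 to 11.5) of the weakest 596. The same groups of central regions had 13.7% and 8.58% in replicate 1 and 11.4% and 9.14% in replicate 3. The word GAGAAAGA, or the word GAGAGAGA, on either strand was in 6.003% of members, against 4.99% of flank regions and 3.12% of central tiles. The F07H5.7 window printed above holds a run of 28 purines, and 7 of the 25 strongest members held a run of at least 15. The longest run in any member was 86 bases.

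**Figure D5:**
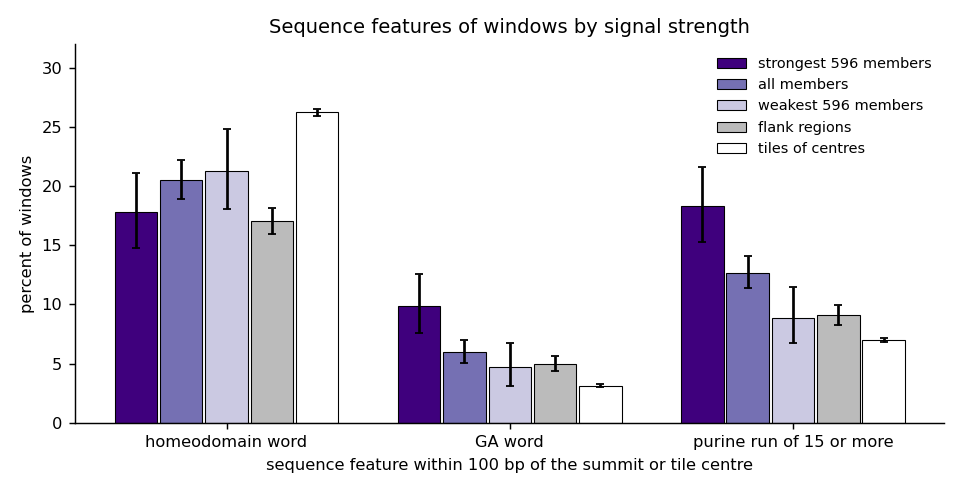
Percent of windows with a homeodomain word, a GA word or a purine or pyrimidine run of at least 15 bases, for the strongest 596 members, all members, the weakest 596, flank regions and tiles of the centres; bars are 95% exact binomial intervals. Homeodomain words were in 26.2% of tiles and 20.5% of members, and purine runs in 6.97% of tiles and 12.7% of members.

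Members had a median G+C content of 38.8% in the same window, against 40.3% in flank regions, while central and outer tiles had 34.3% and 34.8%. The 100 strongest members had 42.04%, and the Spearman correlation of pooled signal with G+C content was 0.15 over 2382 members. A median of 17.9% of a member's window was repeat-masked, against 21.4% in the flanks; the tiles had 25.4% and 37.3%. The part of base composition in the signal values was not tested.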

How the data were processed

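Members and gene lists were chosen with earlier results of these data known. Per the labels and the deposited file descriptions, the authors made lists of peaks and background regions from replicate 1, replicate 3 and both pooled, and derived a reproducible set by IDR. For the aligner, the caller and the treatment of multiply mapped reads, nothing is given in the sources used here. The authors' deposited lists give a signal value and the −log10 of a q-value for each region; ce11 lists were used. The 30 mitochondrial regions of replicate 1 were left out. Annotation was Ensembl release 115 and the genome RefSeq WBcel235. Regions matched when summits lay within 200 bp. Each summit took the first class that applied: promoter window, exon, intron, 500 bp downstream, intergenic. Tiles lay at least 1000 bp from any summit. Shares carry 95% exact Clopper-Pearson intervals; no test was made, since there is 1 group and regions of a library are not replicates. The code was checked on simulated regions. Genes named are those at the 25 strongest members, members among the 1000 strongest of both replicates, the 4 strongest of each list, and the best in replicate 3; others were chosen after their values were seen. Chemoreceptors were matched by gene symbol, and a first pattern that also took some other genes was corrected after its counts were seen. Alternatives were other distances, windows, strengths and single replicates; leaving out piRNA starts was added after the data were seen. Python and its numpy, scipy, pandas and matplotlib libraries were used.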

Additional observations from a re-analysis of the deposited data

How the results depend on the processing

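The pooled density ratio of 1.06 became 1.26 among the 1000 strongest regions. Over the whole single-replicate lists it ran from 0.909 (without replicate 1) to 1.13 (without replicate 3), so its direction there depended on the library. Among the 1000 strongest of each replicate the centres were the denser part in both. In replicate 3, however, their share of 23.3% was close to their 22.4% of the genome's length. The share at or above the median signal, 48.5%, was 50.6% to 51.5% in single replicates, each set against the median of its own list. Here and below, values in single replicates cover all central regions of that replicate's list, not the members. The promoter share, 44.9%, was 31.3% with 500 bp upstream, 65.9% with 2000 bp, 31.2% with protein-coding starts only and 42.7% without piRNA starts, and 41.3% to 45.9% in single replicates. Support by replicate 3, 62.4%, was 52.6% within 100 bp, 67.8% within 500 bp, 70.2% among members at or above the median signal and 37.2% with the 10000 strongest replicate regions. Support by replicate 1, 71.2%, was 60.96%, 75.7%, 77.2% and 47.4% under the same settings. The homeodomain share, 20.5%, was 10.3% within 50 bp, 30.9% over whole regions and 22.04% to 24.6% in single replicates. The GA share, 6.003%, was 3.11%, 8.69%, 7.70% at or above the median signal, and 4.46% to 4.56% in single replicates. Median G+C, 38.8%, was 35.8% to 37.8% in single replicates. The cause of these shifts was not tested, other than the window or distance itself. No paired analysis was possible because there is 1 group. Read depth is unknown here.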
